A study of Mus musculus with 13 samples.

Results

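The clustered protocadherins of the mouse cortex were described in 18-month-old males of 3 genotypes. The groups were 4 Grn-/-;GRNtg mice, with no mouse progranulin gene (Grn) and with human GRN as a transgene, 4 Grn+/- mice, and 5 wild-type mice (WT, Grn+/+). The labels call both mutant groups progranulin deficient and the transgenic group humanized, and they do not give the promoter of the transgene. Members were the genes whose symbols carry an alpha, beta or gamma cluster name (Pcdha, Pcdhac, Pcdhb, Pcdhga, Pcdhgb or Pcdhgc with a number). They numbered 58 of the 17562 genes in the authors' deposited tables, with 14 in the alpha, 22 in the beta and 22 in the gamma cluster.

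Clustered protocadherins are cadherin-superfamily proteins of the neuronal surface. Each neuron transcribes a small, largely random choice of them, and the resulting protein combination binds only a matching one on another membrane, which lets sister branches of a neuron recognise and avoid each other. In the alpha and gamma clusters each variable exon has its own promoter and is spliced to constant exons shared by the cluster, whereas beta genes are single exons. The architectural protein CTCF and the cohesin ring loop chosen promoters to distant enhancers, and DNA methylation silences the rest. The C-type genes at the end of the alpha and gamma clusters are chosen less randomly and are expressed more broadly.

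Only the authors' comparison tables were used here, so no value per mouse can be given, and depth per library is unknown. Each table holds a mean normalized count over the libraries of the study, a log2 fold change, the standard error (SE) of that change and an adjusted p-value. A gene is said to have risen or fallen where the authors' adjusted p was under 0.05. The labels' check held in direction: in the authors' deposited tables Grn fell on the log2 scale by 2.02 (SE 0.081) in Grn-/-;GRNtg against WT and by 0.65 (SE 0.077) in Grn+/- against WT. Neuronal markers of cortex were abundant, with mean normalized counts of 36091 for Slc17a7 and 7821 for Rbfox3 in the authors' deposited tables. In this bulk tissue, fewer cells of a type and less RNA per cell cannot be told apart.

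The 3 clusters lie in tandem on the plus strand of chromosome 18. On GRCm38, the assembly that mm10 names, RefSeq places the alpha genes between 36930285 and 37188897, the beta genes between 37264998 and 37521419 and the gamma genes between 37661775 and 37841873. All 14 alpha and 22 beta genes are annotated as protein coding, as are 21 of 22 gamma genes. The exception, Pcdhgb8, is annotated as a pseudogene.

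Expression was dominated by the gamma cluster and by C-type genes. Mean normalized counts of the members in the authors' deposited tables summed to 11937, which was 0.0659% of the sum over all genes. The gamma cluster held 66.9% of the members' sum, the beta cluster 21.2% and the alpha cluster 11.9%. The 5 C-type genes alone held 39.2%.

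To compare levels between genes, counts were divided by the length of the exon bases that belong to that gene alone, since the constant exons are shared. On this scale Pcdhgc5, found at GABAergic synapses, was highest at 498 mean normalized counts per kb of its own exon bases in the authors' deposited tables. Pcdhgc3, which acts in dendrite arborization, followed at 420 per kb, and Pcdhac2, needed for the tiling of serotonergic axons, at 215 per kb. Pcdhgc4, the isoform needed for neuronal survival, was far lower at 75.7 per kb, and Pcdhac1 was at 22.4 per kb, close to the alpha median of 20.6. The C-type genes thus covered a 22.2-fold range in level per kb. Whether reads on shared exons were dropped or assigned to a gene was not given in the sources used here.

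The gamma A genes formed an even group, from 35.5 per kb for Pcdhga1 to 156 per kb for Pcdhga11, a 4.41-fold range in the authors' deposited tables. Gamma B genes ranged from 9.84 per kb for Pcdhgb8 to 108 per kb for Pcdhgb6, with a median of 41.6 against 98.0 for gamma A. In the beta cluster Pcdhb9 was highest at 118 per kb, the median was 21.4, and Pcdhb1, at the start of the cluster, was listed at 1.03 per kb. Among alpha genes other than the C types, Pcdha12 was highest at 90.9 per kb.

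**Figure D1:**
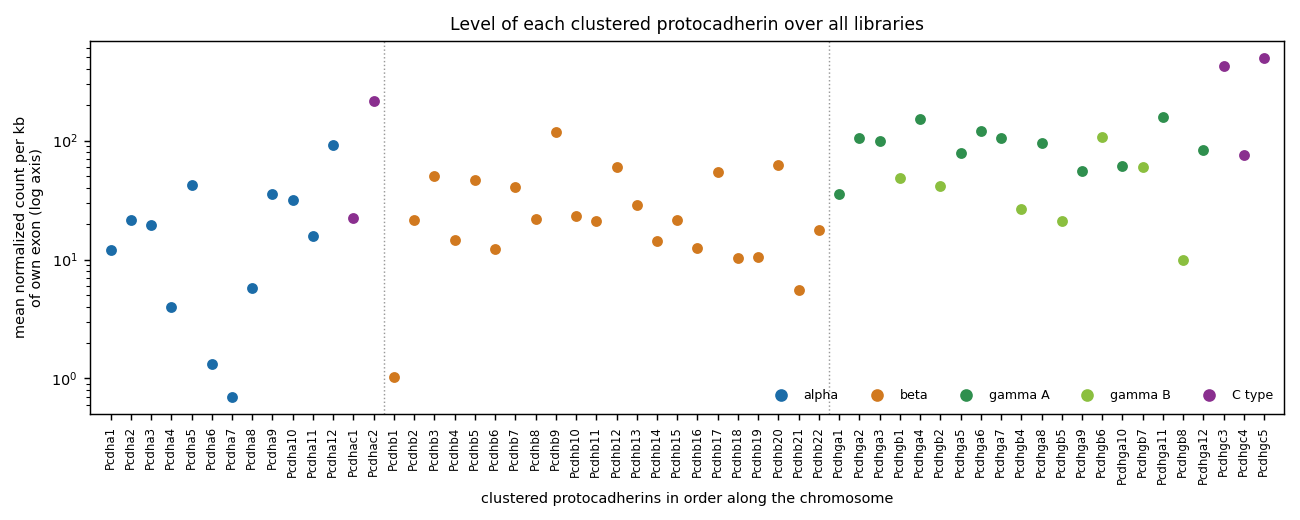
Mean normalized count per kb of own exon bases, on a log axis, for each of the 58 members in genomic order within the alpha, beta and gamma clusters, from the authors' deposited tables. Pcdhgc5 (498 per kb) and Pcdhgc3 (420 per kb) stand at the top, and Pcdha7 (0.704 per kb) at the bottom.

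The 3 lowest alpha genes start within 41 bases of another annotated gene. Pcdha4, Pcdha6 and Pcdha7 had mean normalized counts of 1.97, 3.03 and 1.51 in the authors' deposited tables, against at least 14.2 for every other alpha gene. RefSeq annotates a read-through gene that starts 41, 6 and 9 bases from the start of these 3 genes and runs to the end of the gamma cluster (Gm37013, Gm38666 and Gm38667). Reads of such a pair cannot be assigned to one gene by their position in the shared exons, and the part of this overlap in the low counts was not tested. The 3 genes and Pcdhb1 were listed in the table of Grn-/-;GRNtg against Grn+/- alone.

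Members also share sequence with each other and with transcripts of the opposite strand, to different degrees. Of the 50-base stretches in a gene's own exons, a median of 14.0% occur in another member for alpha genes, 3.48% for beta genes and 0.81% for gamma genes. The highest share was 25.3% for Pcdha7 in the alpha cluster and 16.8% for Pcdhgb1 in the gamma cluster, and all 5 C-type genes had 0. Exons of an antisense gene overlap 13 members, among them 46.1% of the own exon bases of Pcdhgc3. The library kit keeps strand, per the labels' protocols, but the strand setting of the counting was not given in the sources used here.

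In Grn-/-;GRNtg against WT, Pcdhga9 and Pcdhgc3, both of the gamma cluster, were the only members to pass, in opposite directions. They were 2 of 54 listed members, or 3.70%, where 4.87% of all genes in that table passed, 1.81% higher and 3.05% lower. Pcdhga9, a gamma A gene on chromosome 18 with its variable exon starting at 37736936, rose to 127% of the WT level in the authors' deposited table, a log2 fold change of 0.35 ± 0.105 (SE; adjusted p = 0.029). Pcdhgc3, a C-type gene starting at 37806410, fell to 84.0% of the WT level in the authors' deposited table, a log2 fold change of -0.25 ± 0.078 (adjusted p = 0.034). Their 95% intervals ran from 0.14 to 0.55 for Pcdhga9 and from -0.40 to -0.10 for Pcdhgc3. Both calls were lost when the Wald statistics were divided by their spread over all genes, with a smallest adjusted p of 0.99 among members. That rescaling left 5 of all 14961 genes in this comparison, against 728 as deposited.

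The next member by adjusted p was Pcdhb16 of the beta cluster, for which the authors' deposited table gave a log2 fold change of -0.36 ± 0.137 (adjusted p = 0.10). Other beta genes lay on both sides of 0, with Pcdhb13 at 0.25 ± 0.127 and Pcdhb2 at -0.26 ± 0.137, neither past the adjusted threshold. At an unadjusted p under 0.05, 4 members (7.41%) stood out, where 20.5% of all genes did. The other C-type genes were Pcdhac2 at 0.12 ± 0.107, Pcdhac1 at 0.11 ± 0.135, Pcdhgc4 at 0.10 ± 0.109 and Pcdhgc5 at 0.05 ± 0.086 in the authors' deposited table, all short of the threshold. Pcdhgc3 was thus the one C-type gene that passed.

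By cluster, the medians in Grn-/-;GRNtg against WT were small. Fold changes in the authors' deposited table were above 0 for 10 of 11 listed alpha genes, with a median of 0.11 on the log2 scale. The counts were 8 of 21 for beta genes (median -0.03) and 10 of 22 for gamma genes (median -0.01). Over all genes the share above 0 was 51.3% and the median 0.01. None of the 11 alpha genes passed the test singly; Pcdha3 had the highest value at 0.21 ± 0.136, and Pcdha10 was the one below 0, at -0.25 ± 0.132.

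**Figure D2:**
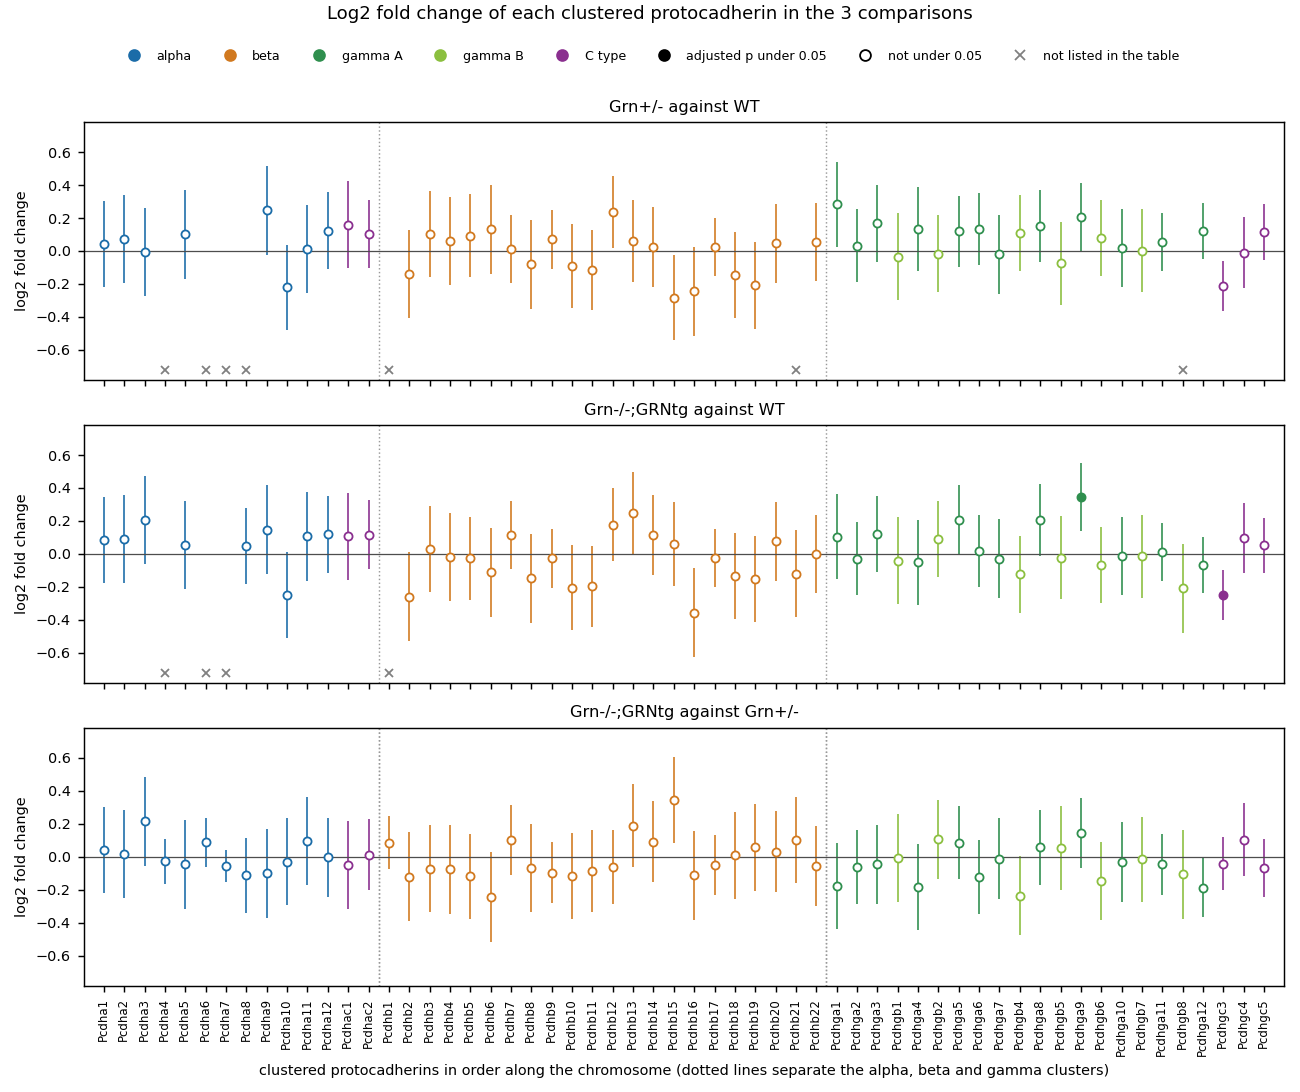
Log2 fold change of each member, in genomic order within its cluster, in the 3 comparisons, with bars for the 95% interval from the authors' deposited SE. Filled marks passed the authors' adjusted p of 0.05; these are Pcdhga9 (0.35) and Pcdhgc3 (-0.25) in Grn-/-;GRNtg against WT, and no member in the other comparisons.

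In Grn+/- against WT, none of 51 listed members passed the authors' DESeq2 test, where 6.80% of all genes did. At an unadjusted p under 0.05, 4 members (7.84%) stood out, where 20.2% of all genes did. They were Pcdhgc3 at -0.21 ± 0.078 (adjusted p = 0.077), Pcdhb15 at -0.28 ± 0.132, Pcdhga1 at 0.28 ± 0.131 and Pcdhb12 at 0.24 ± 0.112 in the authors' deposited table. The last 3 had adjusted p-values of 0.19, 0.19 and 0.20. Pcdhgc3 was therefore the member nearest to the threshold, at 86.4% of the WT level, and Pcdhga9 had 0.21 ± 0.106 with adjusted p = 0.25 in the same table. The comparisons with WT share the same WT mice, so their values for a gene are not independent of each other.

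Fold changes in Grn+/- against WT were above 0 for 8 of 10 listed alpha genes, 12 of 20 beta genes and 15 of 21 gamma genes in the authors' deposited table. The cluster medians were 0.09, 0.02 and 0.08 on the log2 scale, against a median of 0.01 and 52.4% above 0 over all genes. Within the gamma cluster, 11 of 12 gamma A genes and 3 of 6 listed gamma B genes were above 0. The median was 0.13 for gamma A, the median of gamma B was -0.01, and no gene of either subfamily passed singly. Members share a cluster, related sequence and the same mice, so these counts carry no p-value.

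**Figure D3:**
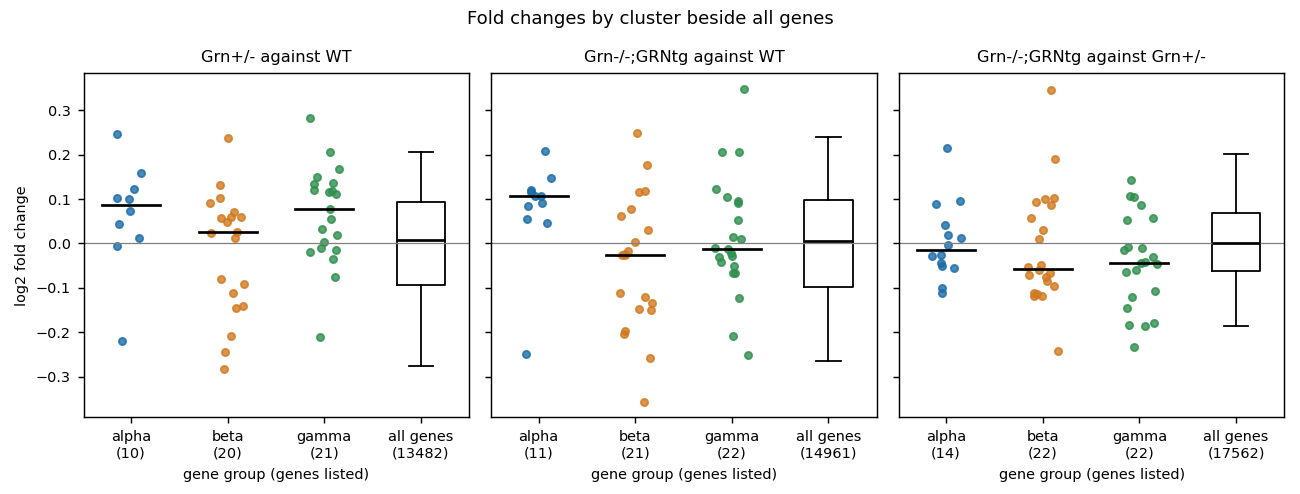
Log2 fold changes of the alpha, beta and gamma members beside those of all genes in each comparison, with lines for the cluster medians and, for all genes, a box from the lower to the upper quartile with whiskers at percentiles 5 and 95. The alpha medians are 0.11 in Grn-/-;GRNtg against WT and 0.09 in Grn+/- against WT, and points of each cluster lie on both sides of 0.

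With the mutant groups set against each other directly, 0 of 58 members passed the authors' DESeq2 test, where 0.467% of all genes did. At an unadjusted p under 0.05, 2 members (3.45%) stood out, where 8.99% of all genes did. In the authors' deposited table they were Pcdhb15 at 0.34 ± 0.134 (adjusted p = 0.32) and Pcdhga12 at -0.19 ± 0.091 (adjusted p = 0.52). The genes that passed against WT were at 0.14 ± 0.108 (Pcdhga9) and -0.04 ± 0.081 (Pcdhgc3), so neither difference between the mutant groups passed. Medians were -0.01 for alpha, -0.06 for beta and -0.04 for gamma genes, with 6 of 14, 9 of 22 and 6 of 22 above 0, where the share was 50.8% over all genes.

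The deposited SEs set which fold changes could pass. The median SE of the members was 0.124 in Grn+/- against WT, 0.125 in Grn-/-;GRNtg against WT and 0.126 in Grn-/-;GRNtg against Grn+/-, where it was 0.0937, 0.0978 and 0.0943 over all genes in the authors' deposited tables. At the median SE a member needed an absolute log2 fold change of 0.36, 0.38 and 0.46 to pass in these comparisons. These limits are on the scale of the deposited fold changes, which should be read as shrunken. They are not limits on the true difference between the groups. The SE was lower for the C-type genes Pcdhgc3 (0.078 in both comparisons with WT) and Pcdhgc5 (0.086), which have the most reads. Low SEs also occurred at very low counts: Pcdha7, at a mean normalized count of 1.51, had the lowest SE of all members, 0.050, in the authors' deposited table of Grn-/-;GRNtg against Grn+/-. Measured in units of its own SE, the median absolute change of the members was 0.766, 0.792 and 0.712, against 1.01, 1.05 and 0.744 over all genes.

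**Figure D4:**
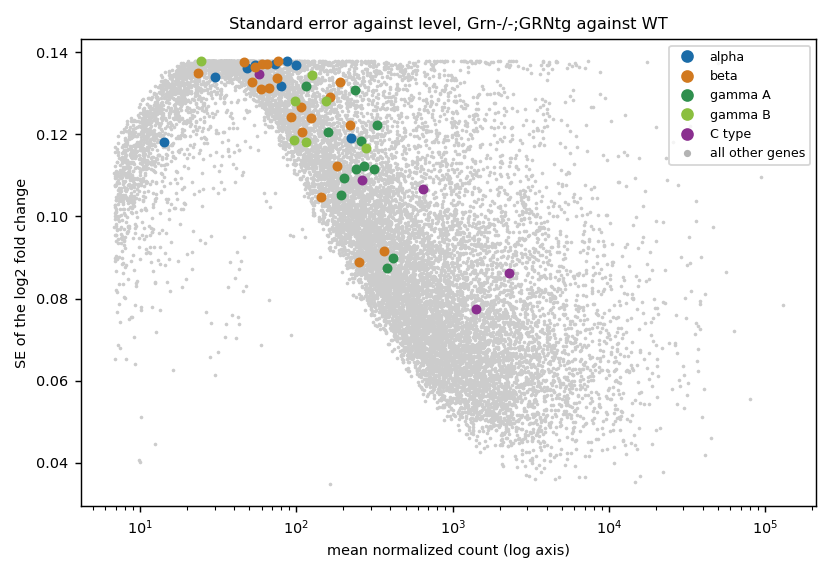
Standard error of the log2 fold change against mean normalized count (log axis) for the members and all other genes in Grn-/-;GRNtg against WT, from the authors' deposited table. Of 54 members, 28 lie above 90% of the largest SE of 0.138, while Pcdhgc3 (0.078) and Pcdhgc5 (0.086) lie lower.

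Genes known to act in protocadherin promoter choice were followed beside the members. Their SEs were smaller, with a median of 0.0697 in Grn+/- against WT in the authors' deposited table. At that SE an absolute deposited log2 fold change of 0.20 sufficed to pass. Of 19 listed CTCF, cohesin and chromatin genes, 7 fell and 1 rose in Grn+/- against WT, where 4.51% of all genes fell and 2.29% rose. In the authors' deposited table and on the log2 scale, the cohesin loader Nipbl fell by 0.40 (SE 0.099), and the cohesin regulators Pds5a and Pds5b fell by 0.37 (SE 0.082) and 0.26 (SE 0.075). The cohesin subunits Stag2 and Stag1 fell by 0.31 (SE 0.087) and 0.26 (SE 0.078), while the ring subunit Smc1a rose, at 0.18 ± 0.054, in the authors' deposited table. Among chromatin genes, the methylcytosine dioxygenase Tet3 fell by 0.41 (SE 0.118) and Smchd1, which silences protocadherin promoters, by 0.27 (SE 0.088) in the authors' deposited table. Ctcf itself was at -0.01 ± 0.058. With Wald statistics divided by their spread over all genes, 0 of the 19 passed, and 3 of all 13482 genes in that comparison did, against 917 as deposited.

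In Grn-/-;GRNtg against WT, 1 of 20 listed genes of this group passed, a share close to the 4.87% of all genes: Pds5a fell by 0.26 (SE 0.081, adjusted p = 0.042) in the authors' deposited table. Nipbl was just short of the threshold at -0.30 ± 0.098 with adjusted p = 0.050, and Ctcf was at -0.02 ± 0.058. The call of Pds5a was lost with rescaled Wald statistics, by which 5 of all genes passed in this comparison. None of the 20 passed between the mutant groups by the authors' DESeq2 test, where 0.467% of all genes did. At an unadjusted p under 0.05 there were 3 of the 20, all higher, where 8.99% of all genes stood out. Against WT there were 11 of 19 in Grn+/- and 6 of 20 in Grn-/-;GRNtg, where 20.2% and 20.5% of all genes stood out. Between the mutant groups all but 5 of the 20 were above 0, where the share was 50.8% over all genes. No single gene of the list was shown to differ between the mutant groups. The medians of the list were -0.05 in Grn+/- against WT, -0.03 in Grn-/-;GRNtg against WT and 0.05 in Grn-/-;GRNtg against Grn+/-. Nuclear-retained noncoding RNAs, listed as a sign of RNA quality, moved in the same tables: 4 of 8 fell in Grn+/- against WT (Mirg, Malat1, Kcnq1ot1 and Rian) and 1 of 8, Malat1, in Grn-/-;GRNtg against WT. Over all genes 4.51% and 3.05% fell. All 8 were below 0 in both comparisons, with medians of -0.23 and -0.14. At an unadjusted p under 0.05 there were 6 and 1 of the 8, where 20.2% and 20.5% of all genes stood out. Reads assigned to no gene also fell, by 0.18 (SE 0.052, adjusted p = 0.024) in Grn-/-;GRNtg against WT and by 0.22 (SE 0.052, adjusted p = 0.0019) in Grn+/- against WT in the authors' deposited tables. The part of either in the cohesin and chromatin transcripts and in Pcdhgc3 was not tested.

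**Figure D5:**
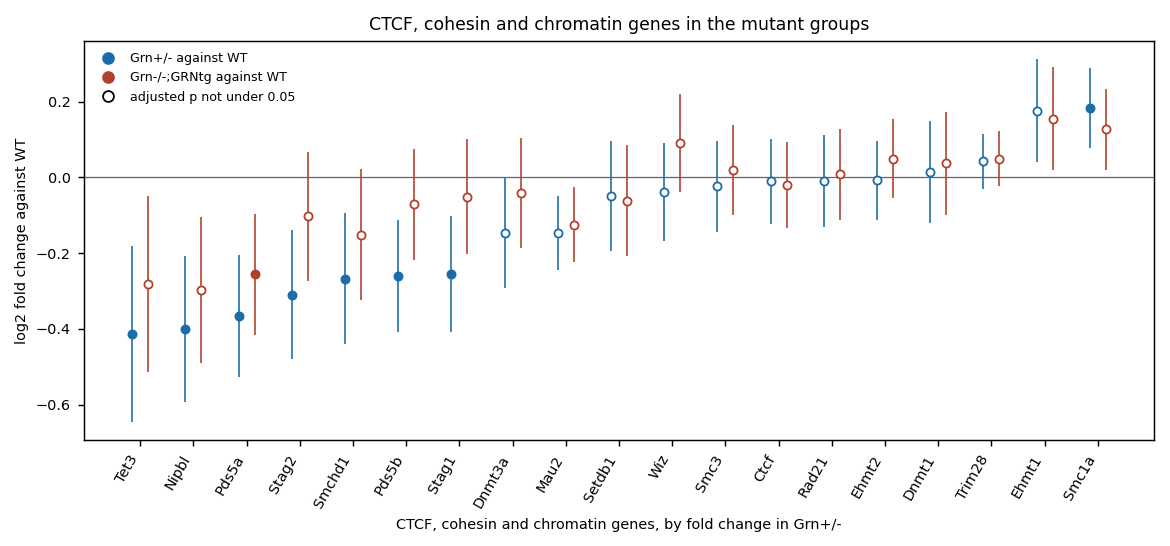
Log2 fold change against WT of the 19 CTCF, cohesin and chromatin genes listed in both comparisons with WT, with 95% intervals from the authors' deposited SE, for each mutant group. In Grn+/- 7 genes fell and Smc1a rose, in Grn-/-;GRNtg Pds5a alone passed, and Ctcf lies at 0 within its error in both.

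Inside the cell, alpha and gamma tails bind the kinases FAK (Ptk2) and PYK2 (Ptk2b), and alpha tails recruit the actin-regulating WAVE complex. By the authors' DESeq2 test 0 of 18 such genes passed in Grn+/- against WT and 0 between the mutant groups. Over all genes 6.80% and 0.467% passed. At an unadjusted p under 0.05 there were 4 (22.2%) and 2 (11.1%), where 20.2% and 8.99% of all genes stood out. In Grn-/-;GRNtg against WT the authors' deposited table has a rise of the WAVE subunit Wasf1, by 0.30 ± 0.086 (adjusted p = 0.018). It was 1 of 18, or 5.56%, a share close to the 4.87% of all genes. Ptk2b had 0.15 ± 0.089 in Grn-/-;GRNtg against WT and 0.19 ± 0.089 in Grn+/- against WT, and Ptk2 had -0.02 ± 0.081 and 0.03 ± 0.081 in the same authors' deposited tables, none of them past the threshold.

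Protocadherins are shed by the protease ADAM10 and then cut in the membrane by gamma-secretase. Where 6.80% of all genes passed, 2 of 8 cleavage genes did: the gamma-secretase subunit Ncstn rose (0.18 ± 0.053, adjusted p = 0.015) and the sheddase Adam17 fell (-0.29 ± 0.097, adjusted p = 0.041) in Grn+/- against WT in the authors' deposited table. Adam10 was at -0.05 ± 0.070 there. No cleavage gene passed in Grn-/-;GRNtg against WT or between the mutant groups by the authors' DESeq2 test. At an unadjusted p under 0.05 there were 2 and 1 of the 8, where 20.5% and 8.99% of all genes stood out.

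Protocadherins outside the clusters, each transcribed from its own locus, gave 1 call. Pcdh15, a cadherin of the hair-cell tip link in the inner ear, fell by 0.52 (SE 0.102, adjusted p = 9.1e-05) in Grn+/- against WT in the authors' deposited table. It was 1 of 11 listed genes, or 9.09%, where 6.80% of all genes passed. It had -0.20 ± 0.101 in Grn-/-;GRNtg against WT and 0.32 ± 0.106 (adjusted p = 0.18) in Grn-/-;GRNtg against Grn+/- in the authors' deposited tables. None of 12 listed genes passed in either of those comparisons, where 4.87% and 0.467% of all genes did. At an unadjusted p under 0.05 there were 4 and 3 of the 12, where 20.5% and 8.99% of all genes stood out. In Grn+/- against WT there were 5 of the 11, 4 lower and 1 higher, where 20.2% of all genes stood out. Genes flanking the clusters were also followed: of 18 listed in Grn+/- against WT, where 6.80% of all genes passed, Ndfip1 (0.27 ± 0.074) and Ik (0.19 ± 0.064) rose in the authors' deposited table. By the authors' DESeq2 test none of 19 passed in Grn-/-;GRNtg against WT and none of 20 between the mutant groups. Over all genes 4.87% and 0.467% did. There were 5, all higher, and 0 at an unadjusted p under 0.05, where 20.5% and 8.99% of all genes stood out.

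Markers of several cell types moved in the same tables. Of 10 neuron markers, Snap25 (0.29 ± 0.097) and Syp (0.22 ± 0.075) rose in Grn+/- against WT, and in Grn-/-;GRNtg against WT Syp rose (0.25 ± 0.075) and Camk2a fell (-0.20 ± 0.055) in the authors' deposited tables. The median log2 fold change of the 10 was 0.11 in Grn-/-;GRNtg and 0.15 in Grn+/-, each against WT, with 7 and 9 above 0. In Grn+/- against WT, 2 of 10 astrocyte markers, Gja1 (-0.26 ± 0.085) and Slc1a2 (-0.22 ± 0.073), and 2 of 6 oligodendrocyte precursor markers, Gpr17 (-0.49 ± 0.094) and Vcan (-0.45 ± 0.108), fell in the authors' deposited table. Fold changes there were above 0 for 3 of the 10 astrocyte markers and 0 of the 6 precursor markers. In Grn-/-;GRNtg against WT 2 of the 10 astrocyte markers (median -0.14) and 2 of the 6 precursor markers (median -0.22) were above 0. None of these passed there. With an unadjusted p under 0.05 there were 2 astrocyte markers, both lower, and 4 precursor markers, 3 lower and 1 higher, where 20.5% of all genes stood out. In Grn-/-;GRNtg against WT 3 of 8 endothelial and mural markers, Slco1c1, Kdr and Flt1, fell and 1 of 8 leptomeningeal markers, Mgp, rose. There all 8 endothelial and mural markers were below 0 (median -0.24), 6 of them at an unadjusted p under 0.05. All 8 leptomeningeal markers were above 0 (median 0.21), 3 of them at an unadjusted p under 0.05, where 20.5% of all genes stood out. In Grn+/- against WT 2 of the 8 endothelial and mural markers (median -0.17) and all 7 listed leptomeningeal markers (median 0.11) were above 0. None of these passed, and 2 of each list had an unadjusted p under 0.05, where 20.2% of all genes stood out. Over all genes, 6.80% passed in Grn+/- against WT and 4.87% in Grn-/-;GRNtg against WT. The part of the cell type markers in the values of Pcdhga9, Pcdhgc3 and Pcdh15 was not tested.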

How the data were processed

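Total RNA of cortex from 13 mice was made into directional libraries, per the labels' protocols, and sequenced. The mm10 build, R 4.1.2 and DESeq2 1.34.0 are named in the submitters' processing notes. The aligner, counter, annotation and strand setting were not given in the sources used here. The deposited tables give a mean normalized count (a signal over libraries), a log2 fold change with its SE, a Wald score and p-values, per the file headers. Dividing each fold change by its SE returned the Wald score, and the deposited adjusted p-values were those of a Benjamini-Hochberg adjustment over each table. Fold changes added up over the 3 tables in all 13482 shared genes. The largest SE was 0.138 in each table, and genes with very few reads had small SEs. No prior was stated in the sources used here. A common ceiling and small SEs at very few reads are what a prior that shrinks fold changes towards 0 leaves. Fold changes, SEs and percentages of WT should therefore be read as shrunken values. The tables start at mean normalized counts of 24.7, 6.83 and 0.523 in Grn+/- against WT, Grn-/-;GRNtg against WT and Grn-/-;GRNtg against Grn+/-, so members not listed have no test there. They list 51, 54 and 58 members. The 2 rows that name no gene (no_feature and ambiguous) held 17.0% and 0.606% of mean normalized counts and were left out. The authors' p-values cover only the spread between these mice. No batch is labelled.

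Exon lengths, 50-base matches and antisense overlaps were computed from GENCODE M21, and positions were read from RefSeq, both on GRCm38. GENCODE M21 lists a single symbol for Pcdha10 and Pcdha11, which were told apart by their starts. Intervals are the fold change ± 1.96 SE. Adjustment and rescaling were run on simulated data with planted changes larger, in units of their spread, than those of Pcdhga9 and Pcdhgc3. The simulation therefore does not show how rescaling treats changes of their size. Python 3.11.15, numpy 2.4.6, pandas 2.3.3, scipy 1.17.1 and matplotlib 3.10.9 were used. Members and lists were chosen with earlier results of these data known, and 1 gene of the CTCF, cohesin and chromatin list is not reported here. Members named were those past adjusted p 0.05, the highest mean count and the 3 largest absolute Wald scores per cluster and comparison, and all C types. Genes of other lists were named past adjusted p 0.05, with Ctcf, Smchd1, Ptk2, Ptk2b and Adam10 whatever their value. Other genes named for level, position or overlap (among them Pcdha4, Pcdhb1, Pcdhgb8 and Pcdhga11), and 2 cortical neuron markers, were chosen after their values were seen.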

Additional observations from a re-analysis of the deposited data

Results flagged for a closer look

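Among the genes named, 2 differed between the mutant groups when Grn-/-;GRNtg was set directly against Grn+/-. Grn was lower in Grn-/-;GRNtg, with a log2 fold change of -1.36 ± 0.085 (SE) in the authors' deposited table. C1ql2, one of 6 hippocampal markers, was higher in Grn-/-;GRNtg, where the authors' deposited table gives 0.50 ± 0.124 (adjusted p = 0.019). Of the 6 markers in that table, 2 were above 0 and 4 below, with a median of -0.06, and C1ql2 alone passed. Against WT it had 0.15 ± 0.127 in Grn-/-;GRNtg and -0.35 ± 0.127 in Grn+/- in the authors' deposited tables, neither past the threshold. No clustered protocadherin differed between the mutant groups by the authors' DESeq2 test, where 0.467% of all genes did. There were 2 of 58 at an unadjusted p under 0.05, where 8.99% of all genes stood out.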

How the results depend on the processing

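Of members in Grn-/-;GRNtg against WT, 2 passed as deposited, 0 passed at an adjusted p under 0.01, 1 (Pcdhga9) with an absolute log2 fold change of at least 0.3 as well, and 0 with Wald statistics divided by their robust spread over all genes (1.56). In Grn+/- against WT the count of 0 became 1 (Pcdhgc3) at an adjusted p under 0.1. Over all genes, counts as deposited were 917 in Grn+/- against WT, 728 in Grn-/-;GRNtg against WT and 82 in Grn-/-;GRNtg against Grn+/-. They became 357, 254 and 35 at 0.01, 1423, 1396 and 159 at 0.1, 499, 454 and 69 with the fold limit, and 3, 5 and 29 with rescaled statistics. The count between the mutant groups was also 43 with p adjusted over the genes of all 3 tables and 40 at a mean normalized count of at least 50. Of 19 CTCF, cohesin and chromatin genes in Grn+/- against WT, 8 passed as deposited, 2 at 0.01, 4 with the fold limit and 0 with rescaled statistics. Cluster medians moved by at most 0.10 over 45 recomputed values, of which 40 kept their sign and 5 changed it. The beta median in Grn-/-;GRNtg against WT reached 0.08 without genes whose SE exceeded 90% of the largest. Leaving out a mouse, another normalization and another test were not run, since the tables hold no value per mouse. No paired analysis was possible because the tables carry no values per mouse.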

Other observations

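Hippocampal, striatal and choroid plexus markers were followed as signs of tissue beside cortex. For the counts below, the shares of all genes that passed were 6.80% in Grn+/- against WT, 4.87% in Grn-/-;GRNtg against WT and 0.467% in Grn-/-;GRNtg against Grn+/-. The shares of all genes at an unadjusted p under 0.05 were 20.2%, 20.5% and 8.99% in the same order. All 8 striatal markers were above 0 in Grn-/-;GRNtg against WT (median log2 fold change 0.15) and in Grn-/-;GRNtg against Grn+/- (median 0.20) in the authors' deposited tables, and none passed singly by the authors' DESeq2 test, with 0 and 2 at an unadjusted p under 0.05. Of 8 choroid plexus markers, 5 were listed in none of the 3 comparisons. The 3 listed markers were all below 0 in the 3 comparisons and none passed, with 1 at an unadjusted p under 0.05. All 8 oligodendrocyte markers were below 0 in each comparison, with medians of -0.22 in Grn-/-;GRNtg against WT, -0.14 in Grn+/- against WT and -0.08 in Grn-/-;GRNtg against Grn+/-, and none passed, with 1 at an unadjusted p under 0.05. None of 8 microglia markers passed in any comparison, with 0 at an unadjusted p under 0.05 in each. Serotonergic neuron markers were near the limit of the tables, with 1, 3 and 5 of 5 listed in Grn+/- against WT, Grn-/-;GRNtg against WT and Grn-/-;GRNtg against Grn+/-, and none passed, with 0, 0 and 2 at an unadjusted p under 0.05.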
